A study of Mus musculus with 14 samples.

Results

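Some open chromatin in the mouse genome lies where 2 or more genes meet, and 1 stretch of DNA there can serve as the edge of several transcription units. Such places were followed in long-term haematopoietic stem cells (LT-HSCs) of the mouse by bulk ATAC-seq, an assay in which the transposase Tn5 cuts and tags accessible DNA. A peak was taken as shared-end when it lay within 1 kb of an annotated end of at least 2 protein-coding genes (RefSeq gene bounds on mm10, autosomes only). The rule used position alone, and it found 2020 of the 57289 peaks of 700 bp. They were 3.61% of the 56007 autosomal peaks and 15.1% of the autosomal peaks at any gene end. The other 11372 autosomal gene-end peaks, within 1 kb of an end of 1 gene only, are called single-end peaks.

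The 14 libraries came from C57BL/6 mice. Aged LT-HSCs treated with Ri (n = 5) and untreated aged LT-HSCs (n = 5) came from mice over 80 weeks old, and young LT-HSCs (n = 4) from mice of 10 to 16 weeks. Ri is Rhosin, a small molecule that inhibits the GTPase RhoA, given at 100 µM. The cells of all 3 groups were sorted from bone marrow as Lin- Sca1+ cKit+ CD34- Flt3- and then held for 16 h at 37 °C, 3% oxygen and 5% carbon dioxide in buffered saline with 10% serum, so no library represents freshly isolated cells. The labels give 3 sequencing batches, each with all 3 groups, and call the replicates biological, without the number of animals behind each. Libraries held 765533 to 3176246 counts in peaks, and the median count of a shared-end peak was 28 to 104 per library. Of 17 stem-cell marker genes 15 had a peak at an end (no peak at Gata2 or Slamf1), against 1 of 6 genes of non-blood tissues. Marker genes of other cells had a peak as well, at 6 of 11 B and T cell, 5 of 7 myeloid, 3 of 5 erythroid, 5 of 5 megakaryocyte and 3 of 6 endothelial and stromal genes. In a bulk library, fewer cells with an open site and less opening per cell cannot be told apart.

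Neighbouring genes can meet in several ways. In a head-to-head pair the starts lie close on opposite strands, with or without overlap of the genes. The DNA at such starts can act as a bidirectional promoter. Such promoters are known from housekeeping genes, including many for DNA repair and mitochondrial proteins, and are usually rich in CpG and poor in TATA boxes. In a tail-to-tail pair the finishes face each other, and in a head-to-tail pair 1 gene ends where the next begins on the same strand.

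To show what such DNA looks like, promoter windows of 7 head-to-head pairs are printed from RefSeq (GRCm38.p6, the assembly called mm10), each running from 250 bases before to 50 bases after 1 gene's start, 5′ to 3′ on that gene's strand, and lying wholly inside its peak. Gps1, Bag5, Entr1 and Dolk belong to peaks that were lower in aged Ri than in young cells, and Lsr belongs to a peak that was higher. Hdgfl2 belongs to the head-to-head peak of highest level, and Mrps12 to a long-known bidirectional pair. Capitals mark matches, on either strand, to any of 8 motifs. The GC box was searched as GGGCGG and the CCAAT box by its 5 letters. For the ETS family the letters were CCGGAAG, and for YY1 AAGATGGCG. The core of the NRF1 site was taken as GCATGCGC, the cyclic-AMP element as TGACGTCA, a palindrome found at some CpG-rich starts as CTCGCGAG, and the TATA box as TATAAA.
Gps1 with Rfng, plus strand, chr11:120784020-120784319: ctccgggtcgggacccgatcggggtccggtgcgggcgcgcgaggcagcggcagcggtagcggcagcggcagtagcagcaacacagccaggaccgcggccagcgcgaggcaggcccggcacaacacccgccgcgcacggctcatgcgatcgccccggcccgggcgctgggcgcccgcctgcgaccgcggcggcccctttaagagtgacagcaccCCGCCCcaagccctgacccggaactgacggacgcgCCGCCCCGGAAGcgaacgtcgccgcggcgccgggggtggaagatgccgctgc
Bag5 with Coa8, minus strand, chr12:111713207-111713506: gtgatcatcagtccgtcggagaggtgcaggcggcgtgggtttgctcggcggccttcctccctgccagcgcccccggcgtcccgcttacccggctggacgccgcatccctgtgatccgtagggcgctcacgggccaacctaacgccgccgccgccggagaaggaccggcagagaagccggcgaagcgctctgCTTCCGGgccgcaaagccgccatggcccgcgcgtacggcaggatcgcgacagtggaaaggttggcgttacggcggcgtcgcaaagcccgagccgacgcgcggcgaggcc
Entr1 with Pmpca, minus strand, chr2:26389267-26389566: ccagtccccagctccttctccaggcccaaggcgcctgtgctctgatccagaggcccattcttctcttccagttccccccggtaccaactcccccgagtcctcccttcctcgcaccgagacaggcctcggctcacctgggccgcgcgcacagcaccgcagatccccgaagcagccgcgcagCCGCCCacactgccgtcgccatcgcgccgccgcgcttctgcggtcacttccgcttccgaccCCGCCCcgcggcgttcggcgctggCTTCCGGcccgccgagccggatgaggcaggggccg
Dolk with Nup188, minus strand, chr2:30286305-30286604: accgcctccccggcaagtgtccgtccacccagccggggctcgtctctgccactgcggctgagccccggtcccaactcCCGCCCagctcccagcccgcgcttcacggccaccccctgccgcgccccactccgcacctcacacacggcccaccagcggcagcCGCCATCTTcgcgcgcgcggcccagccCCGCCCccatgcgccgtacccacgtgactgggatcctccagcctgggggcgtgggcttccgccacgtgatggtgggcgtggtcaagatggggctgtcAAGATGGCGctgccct
Lsr with Fam187b, minus strand, chr7:30973420-30973719: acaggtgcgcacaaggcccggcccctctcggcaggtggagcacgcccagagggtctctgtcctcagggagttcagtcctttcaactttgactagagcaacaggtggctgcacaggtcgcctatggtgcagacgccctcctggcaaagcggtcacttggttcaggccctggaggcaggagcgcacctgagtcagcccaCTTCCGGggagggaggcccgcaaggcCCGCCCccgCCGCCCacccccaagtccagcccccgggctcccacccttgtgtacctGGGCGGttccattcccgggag
Hdgfl2 with Ubxn6, plus strand, chr17:56079381-56079680: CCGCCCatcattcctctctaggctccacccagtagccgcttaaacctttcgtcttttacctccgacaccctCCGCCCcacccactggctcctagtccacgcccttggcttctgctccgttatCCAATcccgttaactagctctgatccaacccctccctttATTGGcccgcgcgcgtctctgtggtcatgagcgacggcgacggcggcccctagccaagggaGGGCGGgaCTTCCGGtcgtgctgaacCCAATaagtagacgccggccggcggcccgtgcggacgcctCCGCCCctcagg
Mrps12 with Sars2, minus strand, chr7:28741772-28742071: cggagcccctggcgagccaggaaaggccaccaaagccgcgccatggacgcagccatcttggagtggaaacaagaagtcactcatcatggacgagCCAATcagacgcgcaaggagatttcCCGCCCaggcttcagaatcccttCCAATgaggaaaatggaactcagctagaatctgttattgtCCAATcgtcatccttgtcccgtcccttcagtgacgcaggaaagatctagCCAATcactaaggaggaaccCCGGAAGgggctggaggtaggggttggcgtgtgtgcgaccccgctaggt
The ETS letters stood in 6 of these windows, in all but Dolk, which held the YY1 letters at bases 161 and 285. In Gps1 a GC box at base 249 ran into an ETS match at base 254. The start of the partner gene in the same table fell inside the window in 5 pairs, at base 185 for Rfng, 238 for Coa8, 219 for Pmpca, 189 for Nup188 and 104 for Sars2. GC content ran from 56.3% in the Mrps12 window, with 16 CpG, to 77.0% in the Gps1 window, with 48. No TATAAA was found in any of the 7, which says only that these letters are not in these windows.

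The same features were counted over whole classes. Of the 1650 genes that start at a head-to-head peak, 1545 (93.6%) had a promoter window that entered the count. Their median GC content was 63.0%, and the observed number of CpG over that expected from base composition was 0.855. The 6954 genes at the start of a single-end peak had 61.7% and 0.764, and all 20085 tabulated windows of autosomal genes 57.0% and 0.586. The table gives some genes several windows and holds none on chromosome 18. The ETS letters stood in 28.9% of head-to-head windows, against 16.1% of single-start windows and 11.9% of all windows. The YY1 letters stood in 5.5% against 2.82% and 1.83%, and TATAAA in 4.27% against 6.67% and 12.7%. The GC box (69.3% against 67.8%) and the CCAAT box (39.2% against 38.2%) were about as frequent in head-to-head as in single-start windows. Windows of the 2 genes of a pair overlap where the starts lie close, so the shares are a description with no test.

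The shared-end peaks joined 3616 genes in 1901 distinct sets, and 236 peaks shared their set of genes with another peak, so neighbouring peaks are not independent. Of the peaks, 1973 lay at 2 genes, 46 at 3 and 1 at 4. That peak (chromosome 17, 24896050 to 24896749) lay at Eme2, which encodes a subunit of a DNA-repair nuclease, Mapk8ip3, a scaffold of JNK signalling, Mrps34, a mitochondrial ribosomal protein, and Nme3, a nucleoside diphosphate kinase. A strand was given for 79.6% of autosomal genes, which placed 876 peaks (43.4%) at head-to-head pairs, 384 (19.0%) at head-to-tail pairs and 70 (3.47%) at tail-to-tail pairs. For 523 peaks (25.9%) the strand of a gene was not given. No gene on chromosome 18 had a strand, so the kinds of pair hold no peak from there. A predicted or unnamed gene (Gm, LOC or Rik symbols) took part in 194 peaks (9.6%). Shared-end peaks made up the largest part of gene-end peaks on chromosome 7 (20.3%), chromosome 17 (19.9%) and chromosome 19 (19.5%), and the smallest on chromosome 18 (9.48%).

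Head-to-head pairs were nearly always open. Of 878 annotated head-to-head pairs with starts within 1 kb of each other, 839 (95.6%) had a peak within 1 kb of both starts. A peak lay at 7036 of 13134 lone starts (53.6%), those with no end of another gene within 2 kb. Tail-to-tail pairs had a peak in 69 of 707 cases (9.76%), and lone finishes in 1017 of 12884 (7.89%). Head-to-tail pairs, in which a start meets a finish, had a peak in 319 of 499 cases (63.9%), nearer to lone starts than to head-to-head pairs.

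Levels followed the same order. Levels are given as CPM, counts scaled to a fixed library total after TMM, a method that sets libraries to a common size. All peaks are 700 bp wide, so CPM needs no correction for width. The effect of other features, such as GC content, on the level of a peak was not tested. The mean CPM per peak in shared-end over single-end peaks was 1.46-fold ± 0.0542 (SD, n = 14 libraries). It was above 1 in all 14, from 1.36 to 1.55 (2-sided exact sign-flip permutation test over libraries, p = 0.000122, the smallest it allows). Head-to-head peaks stood above single-start peaks by 1.57-fold ± 0.066 (SD, n = 14), from 1.44 to 1.66 (same exact test, p = 0.000122). Tail-to-tail peaks stood above single-finish peaks by 1.12-fold ± 0.0591 (SD, n = 14), from 1.0 to 1.23 (same exact test, p = 0.000122). The same peaks enter every library, so these p-values do not measure the spread between peaks. Across peaks the spread was wide: the median was 44.3 CPM for head-to-head peaks (quartiles 25.8 and 72.0), 25.5 for head-to-tail and 9.60 for tail-to-tail, against 24.5 for single starts and 8.01 for single finishes.

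**Figure D1:**
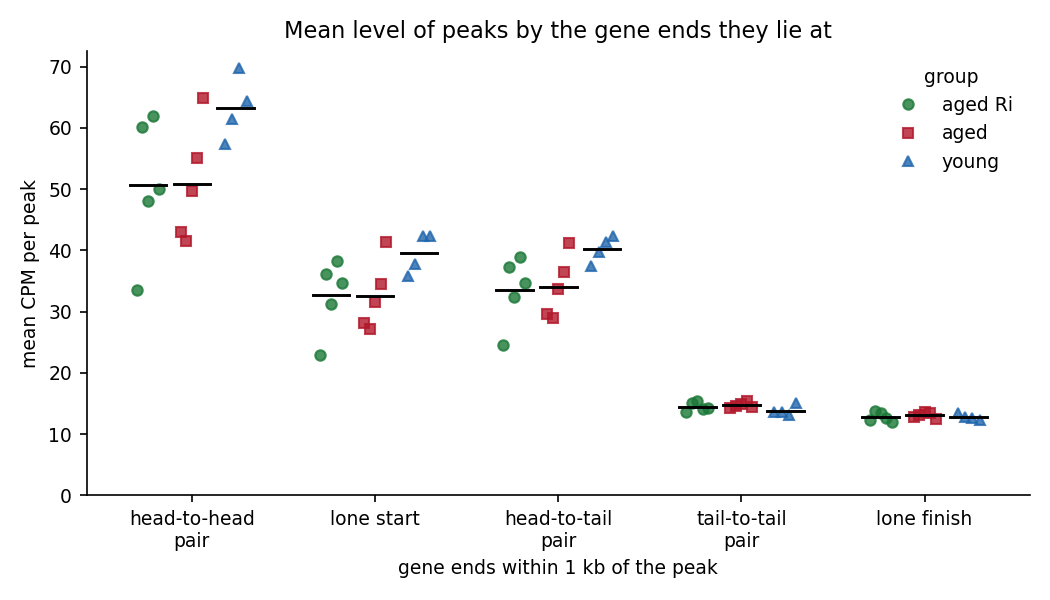
Mean CPM per peak (vertical axis) in each library, by the kind of gene end within 1 kb (horizontal axis), for aged Ri, aged and young libraries from left to right. Points are libraries and black lines group means; head-to-head peaks average 50.8 CPM in aged Ri, 50.8 in aged and 63.2 in young libraries, while tail-to-tail peaks average 14.5, 14.7 and 13.9.

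Within head-to-head pairs the level varied with the overlap of, or gap between, the genes. The median signed gap was 36.5 bp, with overlaps counted as negative, and at 326 peaks the genes overlapped. Peaks of genes over 100 and up to 300 bp apart had the highest median, 63.1 CPM (n = 166), against 41.8 CPM at 0 to 100 bp (n = 274), 50.8 CPM at over 300 and up to 1000 bp (n = 95) and 37.5 CPM where genes overlapped by over 200 bp (n = 204). The quartiles of these bins overlap. Both starts lay inside the peak in 598 peaks (68.3%), whose median was 48.8 CPM, against 31.6 CPM for the 278 peaks that left a start outside.

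**Figure D2:**
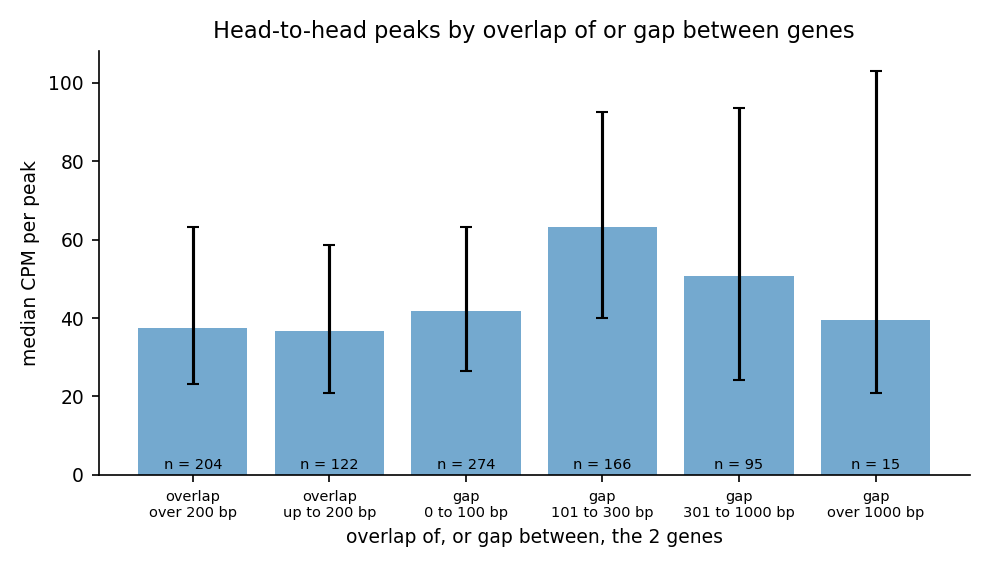
Median CPM of head-to-head peaks (bars, from 0) by the overlap of, or gap between, the 2 genes, with error bars from the lower to the upper quartile and the number of peaks in each bar. The bar for gaps of over 100 and up to 300 bp is the tallest at 63.1 CPM, and the last bar holds 15 peaks.

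The shared-end peak of highest level lay at Khsrp, an RNA-binding regulator of mRNA decay, and Slc25a41, a mitochondrial carrier (chromosome 17, 57031540 to 57032239), with a mean of 340.5 CPM. Second was the head-to-head peak of Hdgfl2, a chromatin reader of the hepatoma-derived growth factor family, and Ubxn6, a cofactor of the ATPase p97 (chromosome 17, 56079030 to 56079729). It had 192.0, 326.0, 291.0, 295.0 and 213.0 CPM in aged Ri 1 to 5, 209.0, 213.0, 274.0, 309.0 and 289.0 in aged 1 to 5, and 236.0, 314.0, 380.0 and 254.0 in young 1 to 4. The 3 groups overlapped, and no comparison passed (edgeR adjusted p = 0.732 for aged against young, 0.989 for aged Ri against aged and 0.765 for aged Ri against young). Next in level were Rras and Scaf1 (261.4 CPM), Izumo4 and Mob3a (260.3 CPM), Fam72a and Srgap2 (254.8 CPM) and Ap2a1 and Tsks (236.9 CPM), where no comparison passed either. The lowest tested were Nek9 and Tmed10 (3.98 CPM), Brd8dc and Nme5 (4.25 CPM) and LOC115489931 and Virma (4.29 CPM).

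Gene families differed in how often they used a shared end. Of 12862 autosomal genes with a gene-end peak, 28.1% had a shared-end peak. The share was 74.6% for histone genes (47 of 63), which stand in clusters, 53.1% for the mitochondrial ribosome and import (51 of 96), 50.0% for DNA repair (38 of 76) and 44.4% for tRNA synthetases (16 of 36). It was 35.0% for replication (14 of 40), 34.0% for the proteasome and chaperonin (17 of 50), 29.6% for the cytosolic ribosome (21 of 71) and 15.4% for zinc fingers (48 of 312). Of 18 pairs on a written list of textbook pairs, 15 had a shared-end peak, with a median of 68.9 CPM over 18 peaks. Of these 18 peaks, 15 were placed as head-to-head. Whether every pair on the list has a bidirectional promoter was not checked. Among them were Brca1 with Nbr1 (145.4 CPM) and the DNA-damage kinase Atm with Npat, a histone gene activator (114.8 CPM). Col4a1 with Col4a2, basement-membrane collagens, was low at 10.2 CPM.

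The first comparison set aged against young cells. Shared-end peaks took a mean of 8.60% ± 0.948 of counts in aged (SD, n = 5) and 9.93% ± 0.323 in young libraries (SD, n = 4). By library the share was 7.84, 7.75, 8.30, 9.09 and 10.0% in aged 1 to 5, and 9.62, 9.76, 10.4 and 9.99% in young 1 to 4. Aged 5 lay within the young range and the other 4 aged libraries below it. Aged less young came to -1.19 percentage points after allowing for batch (exact 2-sided permutation of labels inside batches, 36 arrangements, p = 0.0556, where the smallest possible is 0.0278). Batches 1 and 2 gave -1.83 and -1.36, whereas batch 3, with aged 5 and young 4, gave 0.0114. The ratio of shared-end to single-end counts changed little: its log2 averaged -1.95 ± 0.0331 in aged and -1.93 ± 0.0443 in young libraries, a difference of -0.0123 (exact permutation p = 0.528). Head-to-head over single-start counts differed by -0.0341 on the log2 scale (exact permutation p = 0.139), and tail-to-tail over head-to-head counts by 0.382 (exact permutation p = 0.0556). Counts in head-to-head over the other shared-end peaks of 2 genes with strands given differed by -0.0975 (exact permutation p = 0.0833). Over the 15 such tests made here, no p passed after adjustment (the lowest adjusted value was 0.312).

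The megakaryocyte and the B and T cell marker lists differed between some of the groups. The summed level at megakaryocyte genes was 146 to 216 CPM in aged Ri, 191 to 280 CPM in aged and 88.8 to 183 CPM in young libraries, so that aged and young did not overlap. At B and T cell genes it was 105 to 162 CPM in aged Ri, 103 to 194 CPM in aged and 176 to 249 CPM in young libraries, and aged Ri and young did not overlap. In the stem-cell, myeloid, erythroid, and endothelial and stromal lists the ranges of all groups overlapped. Whether these levels come from other cells or from the LT-HSCs themselves was not tested. Their part in the results on shared-end peaks was not tested either.

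**Figure D3:**
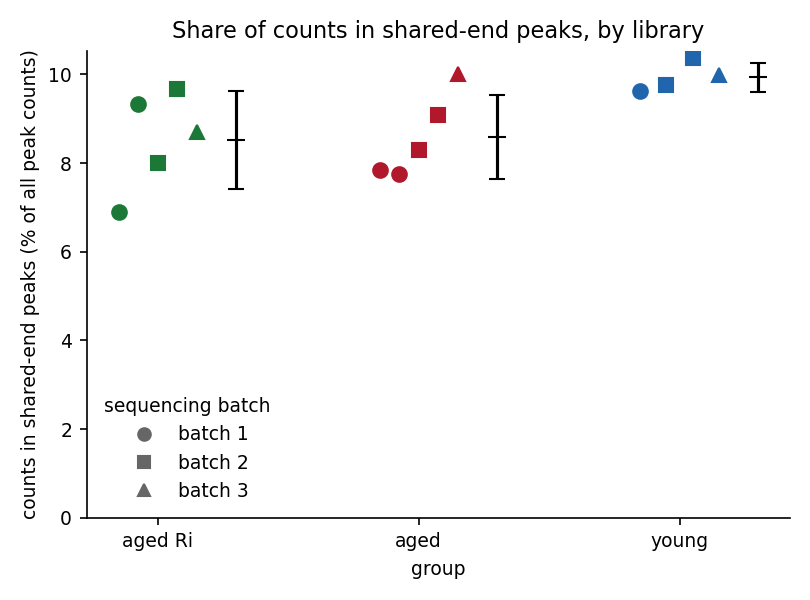
Share of all peak counts that lay in shared-end peaks (vertical axis, %, from 0), by library, for aged Ri, aged and young libraries from left to right; marker shape gives the sequencing batch, and the black mark with bars is the group mean ± SD. Young libraries lie between 9.62 and 10.4%, and aged 5 (10.0%) is the only aged library within that range.

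Peaks were then tested one by one with edgeR over all 56235 peaks that passed its filter, among them all 2020 shared-end peaks; a peak is called when its adjusted p is under 0.05. In aged against young cells 13 shared-end peaks (0.644%) were higher and 27 (1.34%) lower. Over all peaks tested 4.45% were higher and 1.26% lower, and over single-end peaks 1.07% and 1.72%. The median log2 fold change was -0.264 for shared-end, -0.224 for single-end and -0.00762 for all peaks. Gene-end peaks were also split by level into 5 bins of like size. The median was -0.0768 for shared-end and -0.101 for single-end peaks in the lowest bin, and -0.264 and -0.277 in the highest. From the lowest bin up, 0.495, 0.702, 2.04, 3.29 and 0% of shared-end peaks were called lower, against 1.09, 1.51, 2.33, 2.94 and 0.745% of single-end peaks. The share was thus smaller for shared-end peaks in every bin but the one at 29.2 to 50.7 CPM; these differences were not tested. In the highest bin edgeR called 0 of 653 shared-end peaks lower, while 109 lower ones had an unadjusted p under 0.05 and DESeq2 called 2. By kind the median was -0.311 for head-to-head peaks, of which 767 of 876 (87.6%) had a negative fold change. It was 0.0509 for tail-to-tail peaks, of which 4 of 70 (5.71%) were called higher. Single-end peaks differed by kind of end in the same direction. Single starts had a median of -0.255 with 75.9% negative, and single finishes 0.0248 with 3.44% called higher. Of the 17 head-to-head calls, 13 were lower, and 9 of these peaks covered both starts; of the 4 that were higher, 1 did.

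The split between higher and lower calls depended on scaling. Scaled over gene-end peaks alone, the median over all peaks moved by 0.211 on the log2 scale, and that of shared-end peaks became -0.0528. Under this scaling 24 shared-end peaks were called higher and 6 lower, and all 13 higher and 6 of the 27 lower calls were kept. The share of all peaks called under this scaling is not given here, so these counts have no background beside them. With a covariate for the part of each library's counts at gene ends, 0 of 2020 were called by edgeR, and 122 had an unadjusted p under 0.05. In the fit without it, 432 (21.4%) had an unadjusted p under 0.05, against 21.5% of single-end and 22.3% of all peaks. DESeq2 called 48 shared-end peaks, and 2847 of all peaks. The covariate includes the counts of the shared-end peaks themselves. Its larger part, the share in single-end peaks, averaged 33.1% in aged and 37.9% in young libraries. The covariate can therefore take up part of the difference between the groups. The number called also turned on single libraries: leaving out aged 1, 2, 3, 4 or 5 gave 9, 15, 3, 34 or 121 calls, and leaving out young 1, 2, 3 or 4 gave 3, 20, 9 or 113. In 11 of the 13 higher and 22 of the 27 lower peaks the direction was the same in each of the 3 batches.

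**Figure D4:**
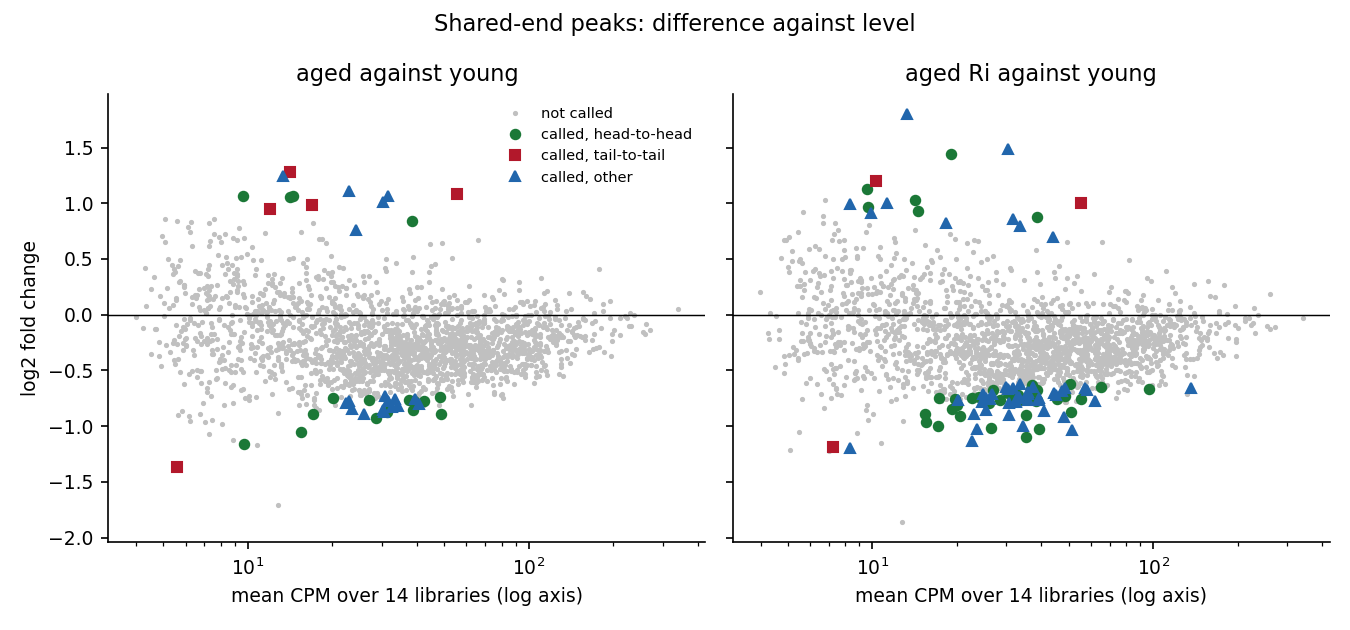
Log2 fold change (vertical axis) of each shared-end peak against its mean CPM (horizontal log axis), for aged against young cells (left) and aged Ri against young cells (right); grey points are not called, coloured points are called by kind of pair. Lower calls gather at middle levels, 27 on the left and 76 on the right, and higher calls spread over lower levels, 13 and 17.

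Among the peaks that were higher in aged cells, the one with the largest fold lay between the finishes of Smtnl1, a regulator of smooth-muscle contraction, and Ube2l6, the conjugating enzyme of the interferon-induced modifier ISG15 (chromosome 2, 84810908 to 84811607). It had 19.2, 24.6, 21.4, 19.2 and 14.2 CPM in aged 1 to 5, against 9.33, 6.19, 9.94 and 6.77 CPM in young 1 to 4. Every aged library lay above every young one. The fold was 2.44 (log2 1.28 ± 0.275 SE, edgeR adjusted p = 0.00379). The peak at Cyb5d1, Naa38, a subunit of the NatC N-terminal acetyltransferase, and Tmem88, a membrane inhibitor of Wnt signalling (chromosome 11, 69396557 to 69397256), had 24.1, 29.3, 42.9, 32.8 and 23.6 CPM in aged and 12.4, 14.4, 12.8 and 15.5 CPM in young libraries. The groups did not overlap, and the fold was 2.16 (log2 1.11 ± 0.246 SE, edgeR adjusted p = 0.00517). These 2 peaks alone among the 40 stayed called without any 1 aged or young library (edgeR adjusted p at most 0.0259 for Smtnl1/Ube2l6 and 0.0395 for Cyb5d1/Naa38/Tmem88).

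A tail-to-tail peak at Rhof, a small GTPase of filopodia, and Tmem120b (chromosome 5, 123118617 to 123119316) had 67.4, 46.9, 86.8, 73.9 and 59.2 CPM in aged and 17.3, 37.8, 22.7 and 50.3 CPM in young libraries. Young 4 lay above aged 2, so the groups overlapped. The fold was 2.12 (log2 1.08 ± 0.253 SE, edgeR adjusted p = 0.00786), and the call ended without young 1 (edgeR adjusted p = 0.115). The head-to-tail peak between the developmental regulators Hoxa5 and Hoxa6 (chromosome 6, 52204140 to 52204839) had 12.0, 12.9, 16.5, 6.84 and 15.6 CPM in aged and 4.44, 2.75, 11.4 and 6.29 CPM in young libraries. Aged 4 lay below young 3. The fold was 2.37 (edgeR adjusted p = 0.0387), and the call ended without any 1 of aged 1, 2, 3 and 5 and young 1 and 2 (edgeR adjusted p up to 0.151). Peaks at Ppp1r15a, which restarts translation after stress, and Tulp2 (2.10-fold), at the homeobox gene Gbx2 and LOC102637806 (2.07-fold) and at Lsr, a lipoprotein receptor, and Fam187b (1.80-fold) were higher as well. Their calls ended without aged 3 or young 1, and in the Gbx2 and Lsr peaks also without aged 1 or young 3 and, for Gbx2, young 2 (edgeR adjusted p up to 0.190). The peak of Ldhd, a D-lactate dehydrogenase, and Znrf1, an E3 ubiquitin ligase, was 1.93-fold higher and lost its call without any 1 library of either group but aged 4 and aged 5 (edgeR adjusted p up to 0.155).

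Among the peaks that were lower in aged cells was one that joined the starts of Gps1, a subunit of the COP9 signalosome, and Rfng, a glycosyltransferase that modifies Notch (chromosome 11, 120783982 to 120784681), whose window is printed above. It had 12.8, 7.62, 7.90, 8.21 and 20.5 CPM in aged and 17.8, 16.5, 25.6 and 38.7 CPM in young libraries. Aged 5 lay inside the young range and the other aged libraries below it. The peak was 2.07-fold lower (log2 -1.05 ± 0.278 SE, edgeR adjusted p = 0.0199), and the call ended without aged 2, aged 3, young 1 or young 3 (edgeR adjusted p up to 0.0778). The head-to-tail peak of Cul7, a cullin of ubiquitin ligases, and Mrpl2, a mitochondrial ribosomal protein (chromosome 17, 46650213 to 46650912), had 28.9, 12.9, 23.7, 28.1 and 26.3 CPM in aged and 34.6, 44.7, 51.1 and 51.8 CPM in young libraries. The groups did not overlap (1.83-fold lower, edgeR adjusted p = 0.0169), and the call ended without aged 2, aged 3 or young 1 (edgeR adjusted p up to 0.0696). The peak of the textbook pair Tk1, the S-phase thymidine kinase, and Afmid, an enzyme of tryptophan breakdown (chromosome 11, 117825402 to 117826101), had 8.02, 9.37, 3.76, 5.47 and 8.46 CPM in aged and 21.3, 12.4, 15.6 and 12.1 CPM in young libraries. Here too the groups did not overlap (2.24-fold lower, edgeR adjusted p = 0.0340), and the call ended without aged 1, 3 or 4 or young 1 or 3 (edgeR adjusted p up to 0.276).

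The other named losses were of like size, 1.74-fold to 1.90-fold. They lay at Syne2, the outer nuclear-membrane protein nesprin-2, with Gm40447, at Iscu, an iron-sulphur cluster scaffold, with the splicing factor Sart3, and at Arpc5, a subunit of the Arp2/3 actin nucleator, with Rgl1. Further ones lay at Nkapd1 with Pih1d2, Ddx52 with Synrg, Fastk with Tmub1, the acid-sensing channel Asic1 with Smarcd1, a subunit of the SWI/SNF remodeller, and Gm10209 with Kbtbd2. Each of these 8 lost its call without aged 3 or young 1 (edgeR adjusted p up to 0.236), and all but Gm40447/Syne2 also without aged 1 and without aged 2. Without young 2 the calls at Asic1 and Gm10209 ended, without young 3 those at Iscu, Arpc5, Nkapd1, Ddx52 and Fastk, and without aged 4 those at Arpc5 and Fastk.

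The lists held 14 to 58 shared-end peaks each, too few to set their calls against the background of 1.26% lower peaks. In aged against young cells the textbook pairs had 1 of 18 peaks lower (Afmid/Tk1) and the mitochondrial ribosome and import 1 of 58 (Cul7/Mrpl2). DESeq2 called 1 peak of the textbook pairs and 3 of the mitochondrial ribosome and import. The DNA repair (38 peaks), replication (14), cytosolic ribosome (25), proteasome and chaperonin (18), tRNA synthetase (21), histone (33) and zinc finger (43) lists had 0 called in either direction by edgeR, with 9, 4, 3, 4, 5, 1 and 8 peaks at an unadjusted p under 0.05 in that order; DESeq2 called 1 tRNA synthetase peak and 0 in the other 6 lists. The median log2 fold change ran from -0.353 (proteasome and chaperonin) to -0.199 (zinc fingers) in 8 of the 9 lists, beside -0.264 over all shared-end peaks, and was -0.0052 for histone genes.

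The second comparison set aged Ri against aged cells and asked what RhoA inhibition changes. Shared-end peaks took 6.89, 9.33, 8.01, 9.66 and 8.71% of counts in aged Ri 1 to 5 (8.52% ± 1.11, SD, n = 5), against 8.60% ± 0.948 in aged libraries (SD, n = 5). The groups overlapped, with a difference of -0.0764 percentage points (exact permutation within batches, 72 arrangements, p = 0.917). The log2 ratio of shared-end to single-end counts differed by -0.0132 (exact permutation p = 0.750). In edgeR 1 shared-end peak was higher (0.0495%) and 0 lower, against 0.375% and 0.0711% of all peaks tested. At an unadjusted p under 0.05 stood 66 shared-end peaks (3.27%), 22 of them lower, against 5.28% of single-end and 10.2% of all peaks. DESeq2 called 1 shared-end peak higher and 0 lower, and 260 of all peaks. The median log2 fold change was -0.00906.

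The called peak lay between the ends of Bcl6b, a transcriptional repressor related to Bcl6, and Slc16a13, a monocarboxylate transporter (chromosome 11, 70223541 to 70224240). It had 20.8, 18.7, 28.7, 21.6 and 28.7 CPM in aged Ri 1 to 5 and 16.0, 10.5, 9.77, 14.4 and 8.91 CPM in aged 1 to 5, and every aged Ri library lay above every aged one. Young 1 to 4 had 19.5, 14.4, 14.2 and 17.4 CPM. The fold was 2.07 (log2 1.05 ± 0.238 SE, edgeR adjusted p = 0.0363), and the call ended without any 1 of aged Ri 2, 3 and 5 and aged 2, 3, 4 and 5 (edgeR adjusted p up to 0.267).

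Aged Ri and aged libraries of the same number deviated together and share a batch, and with the number as a block more peaks were called. That libraries of 1 number share their animals is not stated by the labels. In that fit of the 10 aged and aged Ri libraries 16 shared-end peaks were higher and 3 lower, 0.792% and 0.149%, against 2.75% and 1.32% of all peaks and 1.33% and 0.345% of single-end peaks. Bcl6b/Slc16a13 was 2.12-fold higher (edgeR adjusted p = 0.000246). The peak of Hsd3b7, a bile-acid synthesis enzyme, and Setd1a, a histone H3K4 methyltransferase (chromosome 7, 127801077 to 127801776), was 3.04-fold higher (log2 1.61 ± 0.309 SE, edgeR adjusted p = 0.000258). That of Nos3, the endothelial nitric-oxide synthase, and Atg9b, an autophagy protein, was 2.04-fold higher (edgeR adjusted p = 0.00309). Ccdc159/Plppr2 (1.73-fold), Rassf1/Zmynd10 (1.90-fold), with the Ras-association tumour suppressor Rassf1, and 2200002D01Rik/Yif1b (1.94-fold) were higher too. Of all these peaks Bcl6b/Slc16a13 alone was called in the fit without the block.

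The tail-to-tail peak of Mogs, the glucosidase that trims N-glycans, and Wbp1 (chromosome 6, 83119253 to 83119952) was lower after Ri in the blocked fit. It had 19.8, 13.6, 11.0, 7.91 and 11.7 CPM in aged Ri, 23.3, 18.7, 31.6, 30.8 and 19.1 CPM in aged and 9.33, 13.1, 9.94 and 16.4 CPM in young libraries. Each aged Ri library lay below the aged library of its number, though aged Ri 1 lay above aged 2 and aged 5. With the block its log2 value fell by 1.00 ± 0.205 SE (edgeR adjusted p = 0.000675), and without it by 0.98 ± 0.255 SE (edgeR adjusted p = 0.0739). In aged against young cells the same peak was 1.98-fold higher (edgeR adjusted p = 0.0343), a call that ended without any 1 of aged 1, 3 and 4 and young 1, 2 and 3 (edgeR adjusted p up to 0.226); both comparisons share the aged libraries. The other lower peaks lay at Dnajc3, a chaperone of the endoplasmic reticulum, with Uggt2, a glycoprotein folding sensor (1.70-fold lower, edgeR adjusted p = 0.0119), and at Arhgap30, a GTPase-activating protein, with Nectin4 (log2 -0.62, edgeR adjusted p = 0.0480).

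The third comparison set aged Ri against young cells. The share of counts differed by -1.32 percentage points (exact permutation within batches, p = 0.111), and by -1.51, -1.22 and -1.28 in batches 1, 2 and 3. In edgeR 17 shared-end peaks were higher (0.842%) and 76 lower (3.76%). Over all peaks tested 7.9% were higher and 3.56% lower, and over single-end peaks 2.73% and 4.32%, so the share of lower calls was near the background and that of higher calls below it. Scaled over gene-end peaks, the median over all peaks moved by 0.222. The calls among shared-end peaks were then 39 higher and 23 lower, with all 17 higher and 23 of the 76 lower calls kept. Here too the share of all peaks called under this scaling is not given. With the covariate 6 were called, 2 of them among the 93. Leaving out aged Ri 1, 2, 3, 4 or 5 gave 47, 262, 18, 222 or 69 calls. Leaving out young 1, 2, 3 or 4 gave 30, 45, 33 or 176.

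The peaks that kept their call with the covariate were those of Hoxa5/Hoxa6 and Igfbp6/Soat2. At Hoxa5/Hoxa6, aged Ri 1 to 5 had 9.37, 22.1, 30.0, 19.4 and 16.6 CPM, against the young values given above, and aged Ri 1 alone lay within the young range. The fold was 3.49 (log2 1.80 ± 0.355 SE, edgeR adjusted p = 0.00100, and 0.0385 with the covariate). The peak of Igfbp6, which binds insulin-like growth factors, and Soat2, a cholesterol acyltransferase (chromosome 15, 102150396 to 102151095), had 28.6, 41.7, 73.3, 48.9 and 21.8 CPM in aged Ri, 16.8, 25.2, 47.0, 35.6 and 25.4 CPM in aged and 7.99, 19.9, 14.2 and 18.4 CPM in young libraries. Every aged Ri library lay above every young one. The fold of aged Ri over young was 2.81 (edgeR adjusted p = 0.000358, and 0.0370 with the covariate), and that of aged over young 2.02 (edgeR adjusted p = 0.0215; up to 0.153 without 1 library, the call ending without aged 2 or 3 or young 1, 2 or 3).

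The head-to-head peak at Bbs12, a chaperonin-like protein of cilium assembly, and Cetn4, a centrin (chromosome 3, 37313351 to 37314050), left at least 1 start outside. It had 39.6, 26.4, 45.2, 19.8 and 15.4 CPM in aged Ri, 17.6, 15.2, 20.3, 13.7 and 14.7 CPM in aged and 12.4, 10.3, 5.68 and 10.2 CPM in young libraries. All aged Ri libraries lay above all young ones. The fold was 2.72 against young (edgeR adjusted p = 0.00116), and 1.75 against aged in the blocked fit (edgeR adjusted p = 0.00452). Further gains lay at Emilin2, an extracellular-matrix glycoprotein, with Lpin2 (2.30-fold), at Gbx2/LOC102637806 (2.04-fold), at Brms1 with Rin1 (2.00-fold) and at Rhof/Tmem120b (2.00-fold). At the last, aged Ri libraries had 58.3, 72.4, 72.6, 59.7 and 50.5 CPM, just above the highest young library. These 4 calls each ended without 1 or more libraries (edgeR adjusted p up to 0.120), among them aged Ri 3 and 5 and young 2 and 3 for Emilin2/Lpin2, aged Ri 5 and young 1 for Gbx2/LOC102637806, aged Ri 3 and young 2 and 3 for Brms1/Rin1, and young 1 for Rhof/Tmem120b.

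Losses included the head-to-head peak of Bag5, a cochaperone of Hsp70, and Coa8, an assembly factor of cytochrome c oxidase (chromosome 12, 111712817 to 111713516). It had 16.1, 26.4, 21.3, 37.0 and 38.0 CPM in aged Ri, 36.9, 21.7, 21.8, 28.7 and 62.3 CPM in aged and 46.6, 57.0, 55.4 and 77.4 CPM in young libraries. Every aged Ri library lay below every young one, while aged 5 lay inside the young range. The peak was 2.04-fold lower in aged Ri than in young cells (log2 -1.03 ± 0.232 SE, edgeR adjusted p = 0.00340). The head-to-tail peak of Arhgap30 and Nectin4, an adhesion molecule (chromosome 1, 171388600 to 171389299), had 12.0, 21.3, 9.36, 16.5 and 15.4 CPM in aged Ri, 18.4, 29.3, 15.4, 22.6 and 28.1 CPM in aged and 37.3, 26.1, 35.5 and 28.5 CPM in young libraries. Aged Ri and young libraries did not overlap (2.19-fold lower, edgeR adjusted p = 0.00250). Limd2 with Gm10840 was 2.15-fold lower, Ddx52/Synrg 2.04-fold and Asic1/Smarcd1 2.00-fold. These calls at Bag5, Arhgap30, Limd2, Ddx52 and Asic1 held without any 1 library of the groups compared. Dolk, the kinase that makes dolichol phosphate, with the nucleoporin Nup188 (2.03-fold lower) and Gps1/Rfng (1.96-fold lower) lost theirs without aged Ri 3 or young 3 (edgeR adjusted p up to 0.0836).

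**Figure D5:**
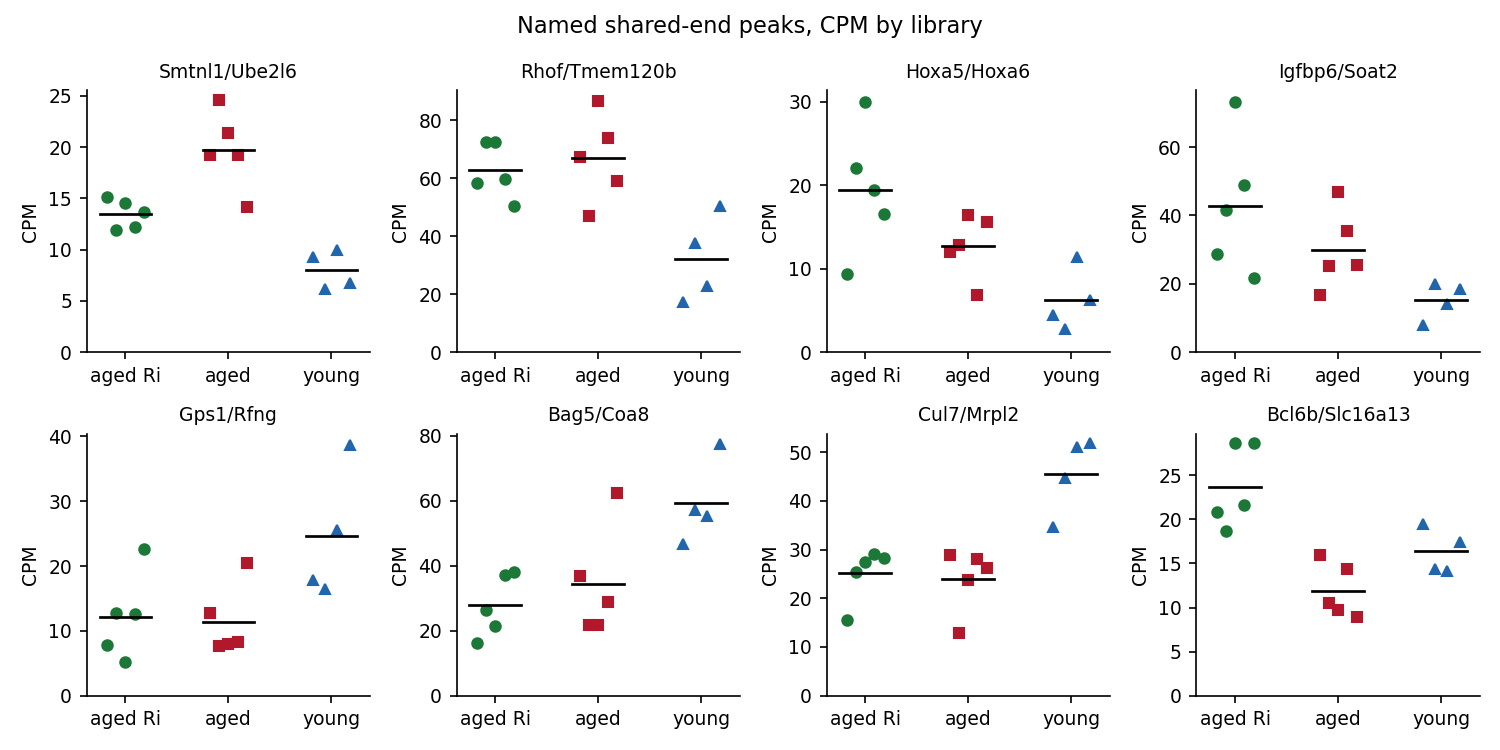
CPM (vertical axes, from 0) of 8 named shared-end peaks in each library of the aged Ri, aged and young groups from left to right; points are libraries and black lines group means. The top row holds peaks higher in aged or aged Ri than in young cells, such as Hoxa5/Hoxa6 (means 19.5, 12.8 and 6.21 CPM). The bottom row holds peaks lower in them, except the last, Bcl6b/Slc16a13, which was higher in aged Ri than in aged cells (23.7, 11.9 and 16.4 CPM).

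Among all peaks tested 3.56% were lower in this comparison, and among shared-end peaks 3.76%. Of the lists, the mitochondrial ribosome and import had 4 of 58 peaks lower in aged Ri than in young cells: Cul7/Mrpl2 (1.73-fold lower), Gga3/Mrps7 (1.72-fold), Parg with Timm23, a channel of the inner-membrane translocase (1.68-fold), and Mrpl43 with the mitochondrial helicase Twnk (1.63-fold). Cul7/Mrpl2 had 15.6, 25.5, 27.4, 29.1 and 28.3 CPM in aged Ri libraries, below every young library, and of the 4 it alone kept its call without any 1 library (edgeR adjusted p at most 0.0448; up to 0.203 for the others). The replication list had 1 of 14 lower, Rfc5/Wsb2 (2.28-fold), with the clamp-loader subunit Rfc5. The proteasome and chaperonin list had 1 of 18, Dnajc2/Psmc2 (1.70-fold), and the zinc fingers 1 of 43, Vps9d1/Zfp276 (1.86-fold). The textbook pairs had 1 of 18, the weaker 1 of 3 peaks at the tumour suppressor gene Trp53 and Wrap53 (chromosome 11, 69579974 to 69580673; 1.67-fold). These calls each ended without young 1 or aged Ri 3. DNA repair, cytosolic ribosome, tRNA synthetase and histone lists had 0 called in edgeR, with 8, 7, 4 and 1 peaks at an unadjusted p under 0.05 in that order, and DESeq2 called 1 tRNA synthetase peak and 0 of the other 3 lists.

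The values of the 40 peaks called in aged against young cells can be set beside the other comparisons, which share libraries with the first. Of the 27 lower ones, aged Ri against young gave a median log2 fold change of -0.749 with 14 called, and aged Ri against aged a median of 0.12 with 0 called by edgeR. Of the 13 higher ones, aged Ri against young gave a median of 0.879 with 8 called, and aged Ri against aged a median of -0.135 with 0 called by edgeR. In each of these sets 4 peaks had an unadjusted p under 0.05 in aged Ri against aged, and DESeq2 called 0. The tail-to-tail peak of Smtnl1/Ube2l6 had 15.1, 11.9, 14.5, 12.2 and 13.7 CPM in aged Ri libraries, between most aged and all young values, and neither comparison with aged Ri passed (edgeR adjusted p = 0.402 against aged and 0.0675 against young). At Cyb5d1/Naa38/Tmem88 aged Ri libraries had 17.2, 24.7, 32.9, 23.0 and 15.8 CPM (edgeR adjusted p = 0.462 against aged and 0.0742 against young). At Afmid/Tk1 they had 4.17, 6.81, 7.42, 14.4 and 6.06 CPM (edgeR adjusted p = 0.919 against aged and 0.0526 against young). At Gps1/Rfng they had 7.81, 12.8, 5.16, 12.6 and 22.6 CPM.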

How the data were processed

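Bulk ATAC-seq of 14 libraries (5 aged Ri, 5 aged, 4 young) was analysed from the deposited raw counts per consensus peak, made by the authors and checked to be whole numbers. The build was mm10, and featureCounts, SAMtools 1.14 and R 4.2.0 are among the tools, per the submitters' processing notes. The aligner, peak caller, duplicate handling and any Tn5 shift are not given in the sources used here, and the peaks have a fixed width of 700 bp. Whether the consensus was called per sample or on pooled samples is also not given.

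Bounds and symbols of protein-coding genes were those of RefSeq on GRCm38.p6, and strands and promoter windows from its table of promoters, which gave a strand for 16457 of 20665 autosomal genes. A peak counted as shared-end when it overlapped 1 kb either side of a bound of at least 2 genes. A start in the promoter table can differ from the gene's bound, as at Rfng and Gps1. Counts were tested with edgeR 4.0.16 (R 4.3.3; filterByExpr by group, TMM over all peaks, quasi-likelihood test with robust fitting, terms for group and sequencing batch, all 14 libraries), with Benjamini-Hochberg adjustment over 56235 peaks and a threshold of 0.05. Log values used a prior count of 2, and mean CPM per group carry no batch adjustment. Single values per library were compared by 2-sided exact permutation within batches in Python 3.11.15 (SciPy 1.17.1). Replicates are biological per the series description; p-values measure the spread between these libraries.

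The labels number replicates alike in each group. Over the 25903 peaks whose mean count reached 20, aged Ri and aged libraries of the same number deviated together (correlations 0.365, 0.137, 0.645, 0.276 and 0.544 for numbers 1 to 5), and the treatment protocol has Ri added to an aged cell sample, so numbers were taken to pair these groups and the blocked fit was added. Aged Ri 4 correlated best with aged 5, and the others with their own number; no label states that numbers mark shared animals. Numbers did not pair young libraries with the others (correlations from -0.278 to 0.0732).

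Peaks were named by rule: per comparison, those called whose mean count reached 20 and whose direction was the same in each batch, 10 with the largest and 10 with the smallest fold change; where fewer than 3 in a direction, the 5 of smallest p; the 6 highest and 3 lowest levels; textbook pairs; the 3 highest and any called peak of each list; and peaks at 4 or more genes. Some items that the rule names are not reported here. Hsd3b7/Setd1a was named after its values were seen. The members, lists and rules were chosen with earlier results of these data known. DESeq2 1.42.0, other scalings, windows of 500 bp and 2 kb, a covariate, blocks and left-out libraries were tried as alternatives. The edgeR and permutation scripts were tested on simulated data.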

Additional observations from a re-analysis of the deposited data

Results flagged for a closer look

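The head-to-tail peak of Cul7/Mrpl2 had 15.6 CPM in aged Ri 1, while the other 4 aged Ri libraries lay between 25.5 and 29.1 CPM. The gap of that library to its nearest neighbour was 0.734 of the range of the group, above the critical value of Dixon's test for 5 samples. Of the 63 groups of values looked at in this way 1 stood apart, and chance sets apart about 1 in 20. Aged Ri 1 also had the lowest share of counts in shared-end peaks, 6.89%; its part in the Cul7/Mrpl2 value was not tested. Without aged Ri 1, and likewise without any other 1 library of the groups compared, the peak stayed called in aged Ri against young cells (edgeR adjusted p at most 0.0448).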

How the results depend on the processing

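The number of shared-end peaks called moved by over 1.5 times under several settings. For aged against young (40) it was 0 with the gene-end share as covariate, 6 with no batch term, 63 with a window of 2 kb and 450 with the replicate number as a block, which does not pair these groups. For aged Ri against young (93) it was 6, 31, 159 and 520 in that order. For aged Ri against aged (1) it was 4 with the covariate, 9 with the replicate block over 14 libraries, 19 with the block over the 10 paired libraries, and 0 scaled over gene-end peaks, with no batch term, with a window of 500 bp or by peak centre. Another window, or the rule by peak centre, changes which peaks count as shared-end, so those counts are over other sets of peaks. For the replicate block over 14 libraries the share of all peaks called is not given here. Leaving out 1 library gave 3 to 121, 18 to 262 and 0 to 4. The cause was not tested. With arrangements over all libraries, the share in aged Ri against young passed an unadjusted 0.05 (-1.41 percentage points, exact permutation p = 0.0476). So did 2 log2 ratios in aged against young. They were tail-to-tail to head-to-head counts (0.423, exact permutation p = 0.0317) and head-to-head to other shared-end counts (-0.107, exact permutation p = 0.0397).

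In aged Ri against aged, where no such value passed a test, leaving out 1 library gave a share difference of -0.51 to 0.238 percentage points. The log2 ratio ran from -0.0454 to 0.00839 for shared-end to single-end, -0.0242 to 0.037 for head-to-head to other shared-end, -0.047 to 0.0134 for head-to-head to single-start, and -0.106 to 0.11 for tail-to-tail to head-to-head counts. In aged against young, shared-end to single-end ran from -0.0288 to 0.00374. The other 204 such values kept their direction and side of the threshold (counts: within 1.5 times). Among values of named peaks and medians, 583 did so, 211 lost their call, 19 gained one and 2 medians moved. The paired fit, the added ratios and the arrangements over all libraries that go with them were chosen after seeing the data. A median of 28 counts per shared-end peak in young 3 limits the precision there.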
